A study of Mus musculus with 12 samples.

Results

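The 9 genes described here are the Nlrp genes that mouse oocytes express at a high level besides Nlrp5: Nlrp2, Nlrp4a, Nlrp4b, Nlrp4e, Nlrp4f, Nlrp9a, Nlrp9b, Nlrp9c and Nlrp14. They were chosen by name, as 9 of the 23230 gene rows of the deposited table, and all 9 passed the filter of 1 FPKM in at least 1 library, as did 11502 genes in all. FPKM counts fragments relative to transcript length and to all mapped fragments, and was scaled by the authors with ERCC spike-in RNA so that a library with less RNA gets lower values. Oocytes of hybrid C57BL6/ICR females were pooled by 10 and sequenced by Smart-seq2, a method that copies full-length polyadenylated RNA. There were 2 pools in each of 6 groups, wild-type (WT) and Zar1/2-null oocytes at the growing, the fully grown germinal vesicle (GV) and the ovulated stage, which the labels call MII (metaphase II). The labels give females 13.5 days old for growing oocytes and 21 days old for GV oocytes, the latter taken 44 h after PMSG, and MII oocytes were collected from the oviduct 16 h after hCG. No label gives the age of the MII donors. According to the study, ovulated oocytes without ZAR1 and ZAR2 were held in the first meiotic division, so MII is used here as the name of the collection and not of their meiotic stage. In the comparison at MII, and in those of maturation between genotypes, genotype and meiotic stage cannot be told apart. Smart-seq2 copies polyadenylated RNA, so a listed level can depend on the poly(A) tail as well as on the amount of RNA. The study reports that the tails of tested maternal transcripts failed to lengthen in null oocytes that had resumed meiosis. The part of tail length in the results below was not tested. A fall or rise here is thus one of listed level, which need not be loss or gain of RNA. Zar1/2-null females carry CRISPR/Cas9 frameshift or stop alleles of Zar1 and of Zar2 (listed as Zar1l), 2 RNA-binding proteins of the oocyte, in every cell of the animal and not in the oocyte alone. Both libraries of a group are separate pools, and nothing says that they came from different females, so that p-values measure the spread between these pools.

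NLRP proteins carry a pyrin domain, a NACHT domain that binds nucleotides and leucine-rich repeats. Some of them, such as NLRP3, assemble inflammasomes in immune cells. A second branch of the family is expressed mainly in oocytes and early embryos, has expanded in rodents by gene duplication, and is laid down as maternal RNA and protein during oocyte growth. NLRP5 (MATER) of this branch is the scaffold of the subcortical maternal complex, together with OOEP, TLE6, KHDC3 and PADI6. Much of the maternal RNA is degraded during meiotic maturation, between the GV and MII stages, and ZAR1 and ZAR2 bind maternal RNA.

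The libraries held oocyte RNA. All 9 oocyte markers examined (Gdf9 the highest) exceeded 1 FPKM, and their summed level lay between 3307 and 16910 FPKM in the 12 libraries. Of 10 granulosa and cumulus markers, 3 reached 1 FPKM in any library and Ptx3 was listed at 0 throughout. Their sum was 20.4 and 23.1 FPKM in WT growing oocytes and 3.76 and 9.18 FPKM in Zar1/2-null growing oocytes, so that it moved with genotype at that stage. It was also apart at the GV stage (12.6 and 14.7 against 7.38 and 9.44 FPKM) and at MII, where the Zar1/2-null oocytes were higher (4.21 and 4.34 against 6.04 and 7.24 FPKM). Of 8 immune markers 1 reached 1 FPKM, with Tyrobp and Cd14 at 0, and of 5 markers of oviduct epithelium none did, with Foxj1 and Pax8 at 0. The summed immune markers were 0.498 and 1.30 FPKM in WT against 3.13 and 3.21 FPKM in Zar1/2-null growing oocytes. At MII the sums of the oocyte, immune and oviduct markers were also higher in both Zar1/2-null libraries than in both WT libraries. The part of these markers in the results below was not tested. Zar1l was lower in Zar1/2-null oocytes at each stage (log2 difference -5.31, -4.61 and -1.15 in growing, GV and MII oocytes), as its 2 libraries in each group showed without overlap. Zar1 RNA was lower in growing and GV oocytes and higher at MII (-0.61, -1.37 and 1.29), the first of which lost its call under both other scalings tried, one with the ERCC factor taken out and one to the median gene of each library. Its allele removes 12 bp, so the RNA level does not check the genotype. Judged from the smallest steps between values in genes of few reads, library depth ranged from 0.914 to 1.24 times that of WT growing replicate 1. The spike-in scaling divided WT MII values by 4.45 and 4.39, and Zar1/2-null MII values by 3.54 and 3.96. In the GV libraries of both genotypes and the Zar1/2-null growing libraries the divisors lay between 1.16 and 1.88. Fewer intact oocytes in a pool and less RNA per oocyte cannot be told apart.

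In the mm9 assembly with GENCODE vM1 genes, 8 of the 9 genes lay on chromosome 7 and Nlrp4f lay on chromosome 13 (chr13:65278419-65307276, minus strand). The Nlrp9c, Nlrp4a and Nlrp9a genes were neighbours in that order (chr7:27107492-27188719, chr7:27220132-27261161 and chr7:27320042-27360634), with Nlrp9c on the minus strand and the other two on the plus strand. Nlrp4e (chr7:24086294-24147289), Nlrp9b (chr7:20593372-20658655) and Nlrp4b (chr7:11273142-11315517) lay on the plus strand and Nlrp2 (chr7:5250156-5302637) on the minus strand of the same chromosome. Nlrp14 stood farthest away (chr7:114310504-114341616, plus strand). Coding sequences were alike within the Nlrp4 and Nlrp9 groups. Nlrp9a and Nlrp9c shared 87.5% of aligned bases, Nlrp9a and Nlrp9b 83.5%, Nlrp9b and Nlrp9c 82.3%, and Nlrp4a and Nlrp4e 85.9%. Nlrp2 and Nlrp14 shared 54.0%, which is as low as between groups. Since only uniquely mapped reads of 50 bases were used, the share of 50-base transcript windows found at more than 1 place in the genome was counted. It was 41.7% in Nlrp4e, between 3.18% and 7.13% in Nlrp4a, Nlrp4f, Nlrp9a, Nlrp9b and Nlrp9c, 0.836% in Nlrp2, and 0% in Nlrp4b and Nlrp14. Nlrp4e levels are therefore uncertain, whereas comparisons of it between groups use the same windows.

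In WT growing oocytes the 9 genes were among the more abundant transcripts. Nlrp14 had 2290 ± 11.2 FPKM (SD, n = 2 here and for each mean below) and ranked 24 of the 11502 genes. Nlrp4f followed with 951 ± 48.7 FPKM, then Nlrp4a with 394 ± 22.4, Nlrp4b with 358 ± 21.9, Nlrp9b with 327 ± 10.6, Nlrp9a with 275 ± 23.2, Nlrp9c with 247 ± 17.8, Nlrp2 with 229 ± 19.5 and Nlrp4e with 112 ± 1.66 FPKM. In this order the libraries of Nlrp9a and Nlrp9c overlapped, as did those of Nlrp9c and Nlrp2, and the other neighbours did not. Together the 9 genes made up 0.825% and 0.806% of all listed FPKM. In WT MII oocytes the order was different. Nlrp4f was the highest with 240 ± 10.8 FPKM, ahead of Nlrp4a with 123 ± 15.4 and Nlrp14 with 110.2 ± 4.60 FPKM, which overlapped. Nlrp2 was the lowest with 6.40 ± 0.126 FPKM. In Zar1/2-null MII oocytes Nlrp14 was again the highest with 516 ± 36.0 FPKM, ahead of Nlrp4f with 173 ± 11.4 FPKM, and Nlrp9b was the lowest with 15.9 ± 1.31 FPKM, overlapping Nlrp2 with 18.5 ± 3.05 FPKM.

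**Figure D1:**
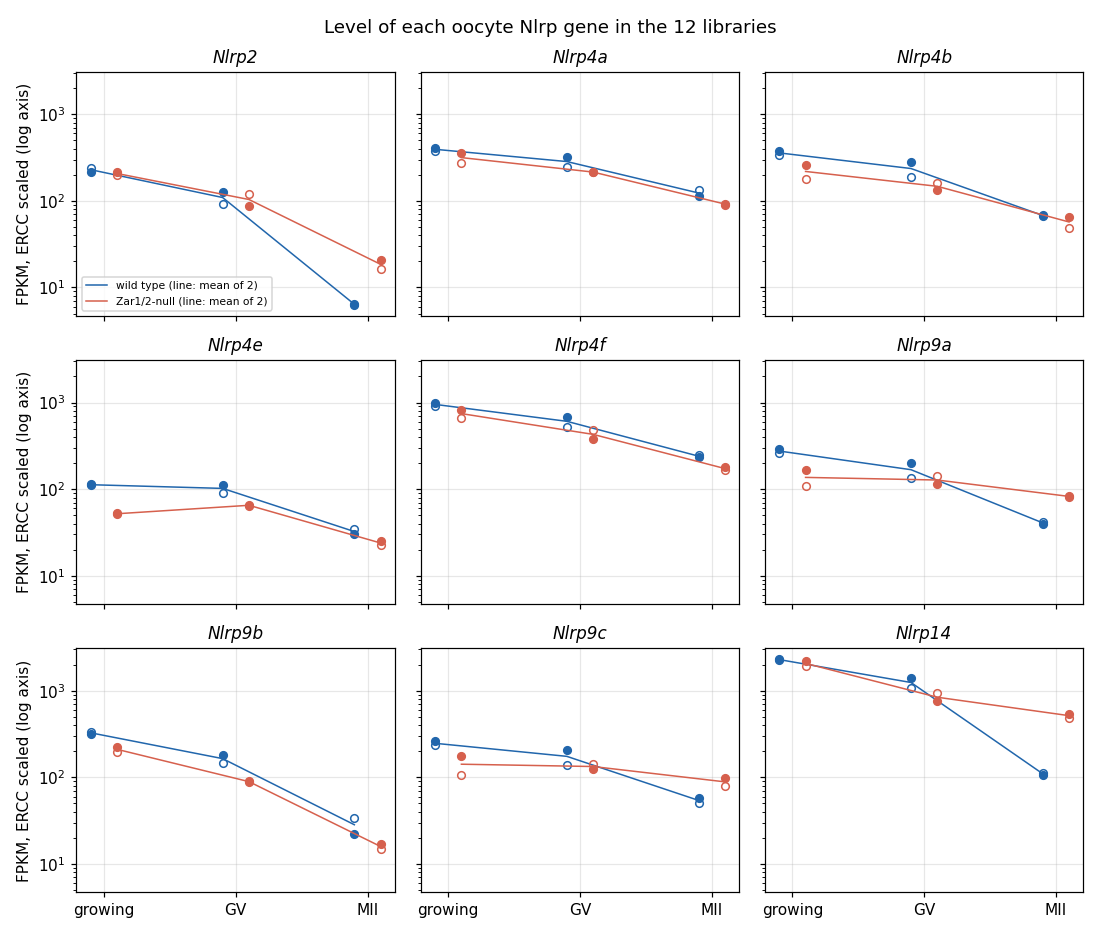
Level of each gene in the 12 libraries (FPKM, ERCC scaled, log axis) by stage, in WT (blue) and Zar1/2-null (red) oocytes; filled points are replicate 1, open points replicate 2, and lines join the means of 2. Nlrp14 and Nlrp2 end at 110.2 and 6.40 FPKM in WT MII oocytes and at 516 and 18.5 FPKM in Zar1/2-null MII oocytes, having fallen in both genotypes on this scale, while Nlrp9b and the Nlrp4 genes end lower in Zar1/2-null oocytes.

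Nlrp14 and Nlrp2 were the genes in which the genotypes differed most at MII. Maternal NLRP14 and NLRP2 are each needed by the early mouse embryo. Nlrp14 had 2298 and 2282 FPKM in the WT growing libraries and 2224 and 1918 FPKM in the Zar1/2-null growing libraries. In fully grown oocytes the WT libraries held 1421 and 1071 FPKM, and the Zar1/2-null libraries 753 and 931 FPKM. After maturation it had 107 and 113 FPKM in WT and 541 and 491 FPKM in Zar1/2-null oocytes. On the deposited scale the genotypes thus lay in the opposite order before and after maturation, without overlap at any stage, but the order before maturation depended on the scaling. At MII Nlrp14 was 4.68-fold higher in Zar1/2-null oocytes, or 2.22 on the log2 scale (standard error, SE, 0.18, adjusted p = 2.3e-06 by limma). It was lower at the GV stage by -0.56 (SE 0.18, adjusted p = 0.027 from limma), and in growing oocytes the difference was -0.15 (95% interval -0.54 to 0.25) and turned to 0.14 under either of the other scalings. The GV difference rested on the scaling, and was -0.11 with the ERCC scaling taken out and -0.02 after median scaling, neither past the threshold. It also lost its call without WT GV replicate 1 or without Zar1/2-null GV replicate 1.

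Nlrp2 had 215 and 243 FPKM in WT growing oocytes, and 215 and 199 FPKM in Zar1/2-null growing oocytes. Fully grown WT oocytes held 126 and 93.1 FPKM, and Zar1/2-null oocytes 88.0 and 119 FPKM. Levels of the genotypes overlapped at the GV stage and were close in growing oocytes. At MII it had 6.31 and 6.49 FPKM in WT and 20.6 and 16.3 FPKM in Zar1/2-null oocytes, 2.89-fold apart in the means. On the log2(FPKM + 1) scale the MII difference was 1.39 (SE 0.20, adjusted p = 0.00023 from limma), while those in growing and GV oocytes were -0.14 and -0.08, with 95% intervals of -0.58 to 0.29 and -0.51 to 0.36. The signs of these last values turned under both other scalings. Across 18 alternatives (other scalings, filters and fits, and each library left out), the MII difference stayed between 1.98 and 2.29 for Nlrp14 and between 1.23 and 1.55 for Nlrp2, with a highest adjusted p of 0.0018 and 0.0049 from limma.

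The 3 Nlrp9 genes did not respond alike. NLRP9B is known as an inflammasome sensor of intestinal epithelium that recognises viral RNA with the helicase DHX9. Nlrp9a had 292 and 259 FPKM in WT growing oocytes, against 166 and 108 FPKM in Zar1/2-null growing oocytes. It had 200 and 136 FPKM in WT GV oocytes, against 113 and 142 FPKM in Zar1/2-null GV oocytes. At MII it had 39.3 and 42.2 FPKM in WT and 83.4 and 81.3 FPKM in Zar1/2-null oocytes, so its libraries separated in opposite directions in growing and MII oocytes and overlapped at the GV stage. Nlrp9c followed the same course. It had 260.0 and 235 against 177 and 106 FPKM in growing, 209 and 140.4 against 125 and 142 FPKM in GV, and 57.6 and 50.9 against 97.4 and 80.2 FPKM in MII oocytes. Nlrp9b was lower in Zar1/2-null oocytes at each stage. It had 319 and 334 against 223 and 198 FPKM in growing, 183 and 146 against 87.4 and 91.1 FPKM in GV, and 22.5 and 34.3 against 16.8 and 15.0 FPKM in MII oocytes, with no overlap at any stage.

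In growing oocytes all 3 Nlrp9 genes were lower in Zar1/2-null oocytes, with log2 differences of -1.04 for Nlrp9a, -0.63 for Nlrp9b and -0.84 for Nlrp9c (adjusted p = 0.0056, 0.028 and 0.023 from limma). At MII, Nlrp9a was higher by 1.00 (SE 0.23, adjusted p = 0.0063) and Nlrp9b lower by -0.77 (SE 0.20, adjusted p = 0.011). Nlrp9c differed by 0.70 (95% interval 0.15 to 1.25, adjusted p = 0.055) and did not pass the threshold. Nlrp9a passed it at MII in all 18 alternatives, Nlrp9b in 14 and Nlrp9c in 7. The call of Nlrp9b at MII was lost without WT MII replicate 2, which had the higher of the WT values, without Zar1/2-null MII replicate 2, with no filter on low values, and in the fit of the MII libraries alone. Ratios between genes of a library do not depend on its scaling, and these were chosen after the values were seen. At MII, Nlrp9a over Nlrp9b was 1.75 and 1.23 in the WT libraries against 4.96 and 5.43 in the Zar1/2-null libraries, and it lay between 0.543 and 1.55 in the 8 other libraries. Nlrp9a over Nlrp9c stayed between 0.683 and 1.12 in all 12 libraries.

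Over a stretch of 140 bases, the promoters of Nlrp9a and Nlrp9c were nearly the same sequence. RefSeq promoter windows (GRCm38.p6, from 250 bases before to 50 after the annotated start) were found for 8 of the 9 genes. A stretch of 140 bases is shown for the genes whose window holds CCAATCA, with every CCAAT, the core of the box bound by NF-Y, in capitals. The motif was chosen after the sequences were seen, because it recurs in them.
Nlrp9a (chr7:26534932-26535071, plus strand): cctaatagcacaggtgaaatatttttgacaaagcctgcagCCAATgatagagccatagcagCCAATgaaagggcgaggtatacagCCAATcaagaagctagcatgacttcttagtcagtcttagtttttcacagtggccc
Nlrp9c (chr7:26403696-26403835, minus strand): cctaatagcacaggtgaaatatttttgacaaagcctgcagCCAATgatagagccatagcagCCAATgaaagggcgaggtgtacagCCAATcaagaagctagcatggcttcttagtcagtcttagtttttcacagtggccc
Nlrp4a (chr7:26435479-26435618, plus strand): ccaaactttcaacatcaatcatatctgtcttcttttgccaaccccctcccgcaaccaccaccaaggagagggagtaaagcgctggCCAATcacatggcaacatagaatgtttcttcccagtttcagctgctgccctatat
Nlrp4b (chr7:10687654-10687793, plus strand): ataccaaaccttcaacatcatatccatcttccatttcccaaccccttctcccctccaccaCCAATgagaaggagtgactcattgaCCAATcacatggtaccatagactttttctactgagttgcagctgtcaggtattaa
Nlrp2 (chr7:5351045-5351184, minus strand): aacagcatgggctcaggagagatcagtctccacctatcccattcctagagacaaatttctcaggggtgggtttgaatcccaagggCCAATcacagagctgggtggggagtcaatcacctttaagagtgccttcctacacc

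The Nlrp9a and Nlrp9c stretches were identical at 98.6% of 140 bases and each held 3 CCAAT boxes, while those of Nlrp4a and Nlrp4b were identical at 74.3% of 136 aligned bases. The windows of Nlrp9b, Nlrp4e and Nlrp4f held no CCAATCA, and neither did the other annotated start of Nlrp4a, so none of these was aligned. On either strand, CCAATCA was present in 7.82% of all 32851 RefSeq promoter windows and CCAAT in 37.4%, and 3.37% held the shorter motif 3 or more times. The shorter motif lies within the longer, so these shares are not separate. Nlrp14 had no entry. The windows depend on the annotated starts, and their letters are a description of these windows alone.

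The 4 Nlrp4 genes were lower in Zar1/2-null oocytes in each pair of group means. Nlrp4f is reported as a partner of the maternal complex, and Nlrp4e is needed by cultured early embryos. Nlrp4f had 986 and 917 FPKM in WT and 821 and 668 FPKM in Zar1/2-null growing oocytes, and 689 and 524 against 380.4 and 477 FPKM at the GV stage. At MII it had 233 and 248 against 181 and 165 FPKM. Nlrp4a had 409.8 and 378 against 355 and 277 FPKM in growing, 325 and 244 against 213 and 217 FPKM in GV, and 113 and 134 against 93.2 and 90.6 FPKM in MII oocytes. In both genes the genotypes did not overlap at any stage, yet the gap was small beside the spread: Nlrp4a did not pass the threshold at any stage, and Nlrp4f passed it narrowly at the GV stage (log2 difference -0.50, adjusted p = 0.0498 from limma). That call held in 3 of the 18 alternatives, and the difference was -0.04 without the ERCC scaling and turned to 0.0449 with median scaling.

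Nlrp4b had 373 and 343 FPKM in WT and 260 and 177 FPKM in Zar1/2-null growing oocytes, and 284 and 189 against 134 and 161 FPKM at the GV stage. At MII its values were 67.4 and 68.3 against 65.2 and 48.9 FPKM. It was lower by -0.73 in growing and by -0.66 in GV oocytes (adjusted p = 0.033 and 0.045 from limma), and differed by -0.26 at MII (95% interval -0.78 to 0.26). Nlrp4e had 114 and 111 FPKM in WT and 52.4 and 51.6 FPKM in Zar1/2-null growing oocytes, with 113 and 91.1 against 65.5 and 64.6 FPKM at the GV stage and 30.4 and 34.3 against 25.0 and 22.7 FPKM at MII. Replicates of Nlrp4e were close in growing oocytes of both genotypes, but less so in WT GV oocytes. Nlrp4e passed the threshold at every stage, with -1.10 (SE 0.15) in growing, -0.63 in GV and -0.42 in MII oocytes (adjusted p = 0.00027, 0.0059 and 0.0485 from limma). In growing oocytes its call held in all 18 alternatives, between -1.11 and -0.80. At the GV stage it held in 15 of 18 and was lost under both other scalings, with -0.18 and -0.10, and at MII it held in 9 of 18.

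The 3′ ends of the transcripts were examined for the U-rich element TTTTAT, a cytoplasmic polyadenylation element through which maternal RNAs gain poly(A) in maturing oocytes, and for the polyadenylation signals AATAAA and ATTAAA. The last 100 bases of the 3′ UTR of the longest coding transcript were searched on the transcript strand (GENCODE vM1, mm9). For the first motif present, in the order named, 30 bases around its copy nearest the end are shown with the searched letters in capitals.
Nlrp4a: cttttcatccaaTTTTATgtcatctctcac
Nlrp4f: tgctgttttgtgTTTTATATTAAAgaatag
Nlrp4b: tttctgttttgtATTAAAgaataacataag
Nlrp2: ctggtatattggggAATAAAagggaaaaca
Nlrp9a: tacaagcacattcAATAAAcactaagcatg
Nlrp9b: acaagcacatttAATAAAcactaagcgtgt
Nlrp9c: acaagcacATTAAATAAAcactaagcatgt
TTTTAT was found in Nlrp4a and Nlrp4f, and in 13.6% of the 17969 genes with a 3′ UTR of this length. In Nlrp4f it runs into ATTAAA. The signal AATAAA was present in 64.3% of these genes, and ATTAAA in 20.4%. Nlrp4a and Nlrp14 held neither signal in this window, and Nlrp14 none of the searched motifs. Nlrp4e had no annotated 3′ UTR, and the windows of the other genes depend on their annotated ends. The 3 Nlrp9 ends were almost alike in sequence.

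Set side by side, the genotype effect in growing oocytes was a decrease in part of the family. Of the 9 genes, 5 were lower in Zar1/2-null growing oocytes (Nlrp4b, Nlrp4e, Nlrp9a, Nlrp9b and Nlrp9c) and 0 higher, against 24.4% of all 11502 genes lower and 10.6% higher. The median difference was -0.63 over the 9 genes and -0.16 over all genes. None of the 9 passed the 3-fold rule in either direction, which 3.54% of all genes did as lower and 0.982% as higher. As over all genes, the count of 5 depended on the libraries and the scaling. It was 1 (Nlrp4e) without Zar1/2-null growing replicate 2, 2 (Nlrp4e and Nlrp9a) without either WT growing library, 3 without the ERCC scaling (Nlrp4e, Nlrp9a and Nlrp9c) and 2 with median scaling (Nlrp4e and Nlrp9a), where 11.7% and 11.9% of all genes were lower.

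At the GV stage 5 of the 9 genes were lower (Nlrp4b, Nlrp4e, Nlrp4f, Nlrp9b and Nlrp14) and 0 higher, where 40.6% of all genes were lower and 2.83% higher. The median was -0.50 over the 9 genes and -0.38 over all genes, the latter -0.48 with a pseudocount of 0.1 FPKM. Again 0 genes passed the 3-fold rule, against 4.2% of all genes lower and 0.461% higher. Fewer of all genes were called lower when any single library was left out. Without the ERCC scaling, which moved the median of all genes to -0.03, 0 of the 9 were called lower at this stage, against 13.1% of all genes. The count fell to 1 (Nlrp4e) without WT GV replicate 1, to 2 (Nlrp4e and Nlrp9b) without Zar1/2-null GV replicate 1, and to 3 (Nlrp14, Nlrp4e and Nlrp9b) without either WT growing or either WT MII library.

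**Figure D2:**
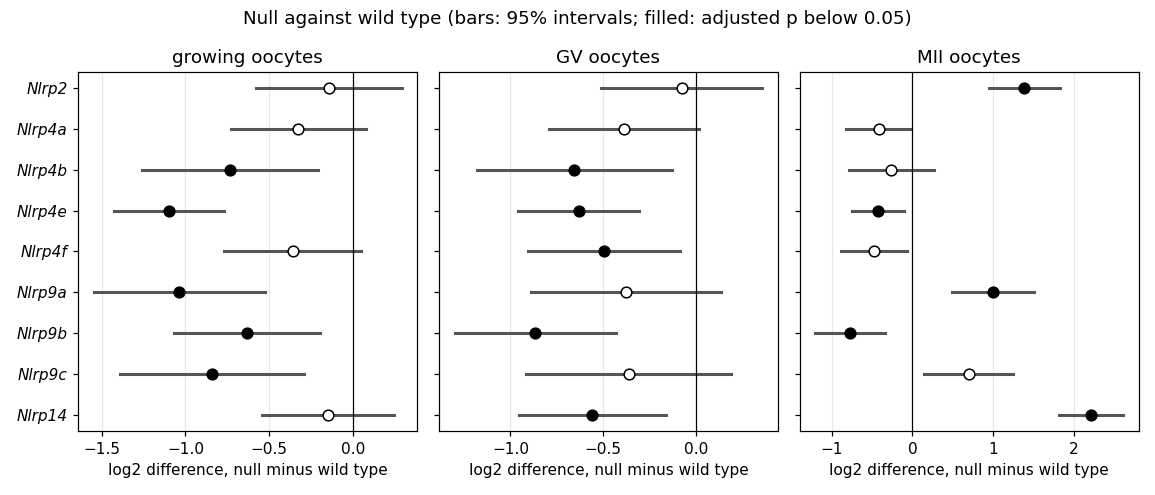
Difference between Zar1/2-null and WT oocytes for each gene at the 3 stages (log2 scale, null minus WT; bars are 95% intervals from limma over 12 libraries, filled points have an adjusted p below 0.05). In growing and GV oocytes all points lie at or below -0.08, although the smallest of them change sign without the ERCC scaling; at MII Nlrp14, Nlrp2 and Nlrp9a stand at 2.22, 1.39 and 1.00 and Nlrp9b at -0.77, signs that held under each scaling.

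At MII the calls went in both directions, among the 9 genes as among all genes. Nlrp14, Nlrp2 and Nlrp9a were higher and Nlrp4e and Nlrp9b lower in Zar1/2-null oocytes, 3 and 2 of the 9 genes, against 21.5% of all genes higher and 10.3% lower. Nlrp14 alone passed the 3-fold rule as higher, 1 of 9 against 7.49% of all genes, and 0 passed it as lower, against 1.32%. Nlrp2, at 2.89-fold, lay just under that rule and passed it without Zar1/2-null MII replicate 2. All 9 genes kept the sign of their MII difference in each of the 18 alternatives. Without the ERCC scaling the same 3 genes were higher and 5 were lower: Nlrp4a (-0.66), Nlrp4b (-0.50), Nlrp4e (-0.67), Nlrp4f (-0.72) and Nlrp9b (-1.03). Of all genes 23.9% were then higher and 22.7% lower. Median scaling gave the same 5 lower genes, where 23.6% of all genes were lower. On the deposited scale fewer of all genes were lower when any single MII library was left out. The 2 lower calls of the deposited scale were the least firm: 0 remained without WT MII replicate 2, without Zar1/2-null MII replicate 2 or in the fit of the MII libraries alone, and 1 (Nlrp9b) when any other single library of growing or MII oocytes was left out.

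**Figure D3:**
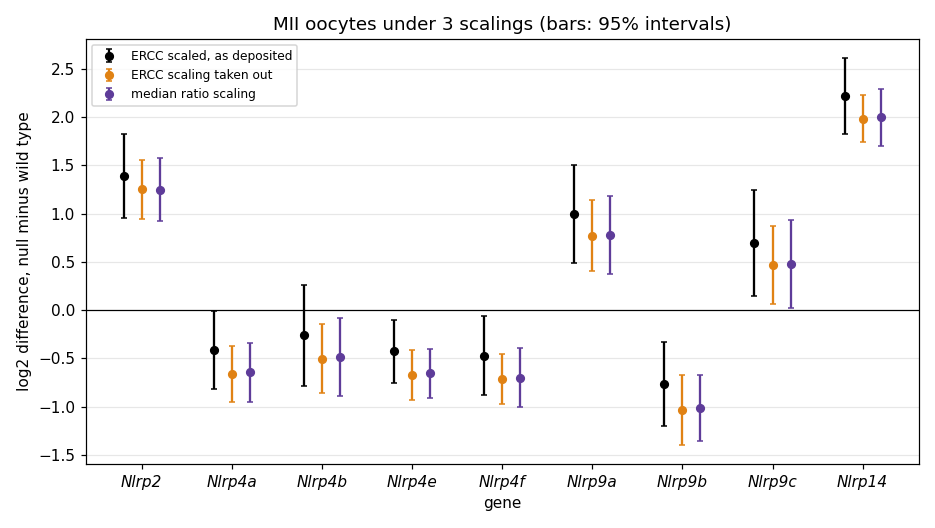
Zar1/2-null minus WT difference at MII for each gene (log2 scale, bars are 95% intervals) with the deposited ERCC scaling, with that scaling taken out, and with a median scaling. Each gene keeps its sign: Nlrp14 lies at 2.22, 1.98 and 2.00, while the 4 Nlrp4 genes and Nlrp9b move from between -0.26 and -0.77 to between -0.49 and -1.03.

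The make-up of the Nlrp pool, which no scaling can alter, restates the same values as shares. A lower share of one gene raises those of the others, so the shares are not separate results. In WT growing and GV oocytes and in Zar1/2-null oocytes of all stages, Nlrp14 made up between 38.4% and 51.8% of the summed FPKM of the 9 genes in each of the 10 libraries. In WT MII oocytes it made up 15.8% and 15.5%, against 48.2% and 48.6% in Zar1/2-null MII oocytes. Nlrp4f took up 34.4% and 33.9% in WT MII and 16.1% and 16.3% in Zar1/2-null MII oocytes, with 18.0% to 20.3% at the earlier stages in both genotypes. Nlrp4a took up 16.6% and 18.3% against 8.29% and 8.97%. In FPKM neither gene passed the threshold at MII on the deposited scale (log2 difference -0.47 for Nlrp4f and -0.42 for Nlrp4a). Nlrp14 over Nlrp4f was 0.459 and 0.457 in the WT MII libraries and 2.99 and 2.98 in the Zar1/2-null MII libraries. The ratio of this pair was chosen after the values were seen. At MII, replicates thus differed by less than 0.02 in this ratio, in which the genotypes stood far apart. In the growing and GV libraries it lay between 1.95 and 2.87, and growing replicates were farther apart (2.33 and 2.49 in WT). The sum of the 9 genes was 676 and 732 FPKM in WT MII and 1124 and 1010.4 FPKM in Zar1/2-null MII oocytes. As a share of all listed FPKM it was 0.527% and 0.604% in WT MII against 0.535% and 0.573% in Zar1/2-null MII oocytes, so that the genotypes overlapped.

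**Figure D4:**
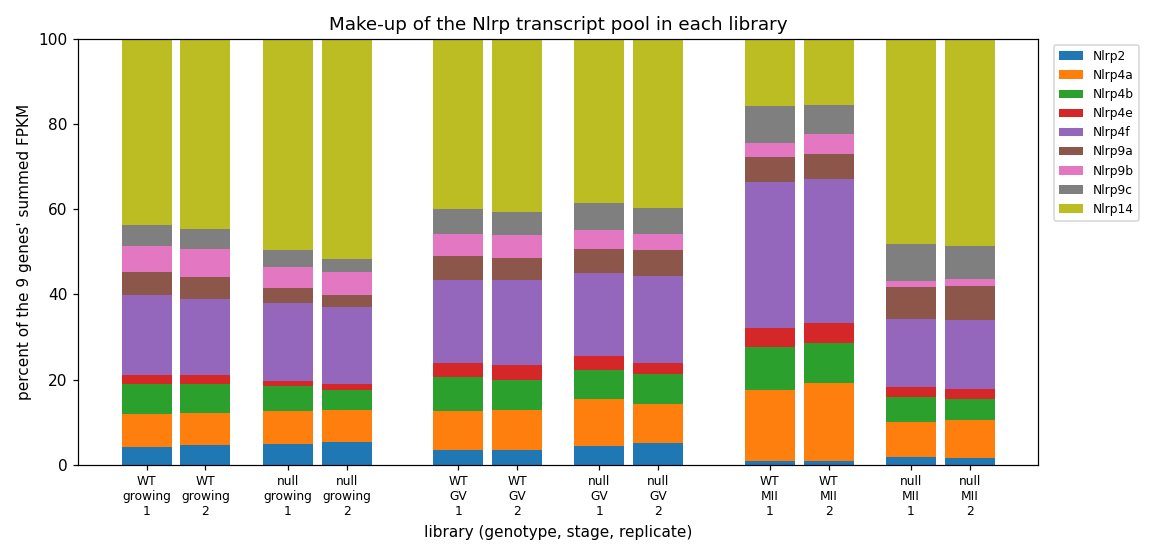
Share of each gene in the summed FPKM of the 9 genes (percent) in each library, by stage, genotype and replicate. Nlrp14 (top) makes up 15.8% and 15.5% in the WT MII libraries and 38.4% to 51.8% in the other 10, and Nlrp4f makes up 34.4% and 33.9% in WT MII.

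During growth of WT oocytes, from the growing to the GV stage, 5 of the 9 genes fell (Nlrp14, Nlrp2, Nlrp4f, Nlrp9a and Nlrp9b) and 0 rose, against 28.7% of all genes lower and 2.77% higher. The log2 differences ranged from -1.07 for Nlrp2 to -0.15 for Nlrp4e, with -0.89 for Nlrp14, beside a median of -0.29 for all genes. Nlrp2 and Nlrp14 were also lower without the ERCC scaling (-0.69 and -0.50) and with median scaling (-0.70 and -0.52), where the median of all genes was 0.03 and 0.01 and 3.0% and 3.43% of all genes were lower. The count of 5 depended on the libraries kept. It was smaller without WT GV replicate 2 or without either WT growing library, where fewer of all genes were lower as well.

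During maturation of WT oocytes, from GV to MII, all 9 genes fell, as did 93.4% of all genes, with 0.104% higher. The falls were very unequal. Nlrp2 fell 17.1-fold (log2 difference -3.88, SE 0.20) and Nlrp14 11.3-fold (-3.47, SE 0.18), and these 2 passed the 10-fold rule, which 15.7% of all genes did. Nlrp9b followed with -2.52, then Nlrp9a with -1.99, Nlrp4b with -1.76, Nlrp9c with -1.64, Nlrp4e with -1.62, Nlrp4f with -1.32 and Nlrp4a with -1.19. The median over all genes was -1.28, but -2.12 with a pseudocount of 0.1 FPKM, which left Nlrp4a and Nlrp4f at -1.19 and -1.32, so their place relative to the typical gene depended on that choice. Without the ERCC scaling, where the median was -0.39 and 46.1% of all genes were lower and 19.2% higher, Nlrp2 (-2.28), Nlrp14 (-1.73) and Nlrp9b (-0.80) were still lower, whereas Nlrp4a (0.56) and Nlrp4f (0.43) were higher. Without WT GV replicate 1, 1 gene (Nlrp2) passed the 10-fold rule.

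In Zar1/2-null oocytes 8 of the 9 genes fell from GV to MII, as did 68.7% of all genes with 0.209% higher, and Nlrp9c did not pass the threshold (-0.59, adjusted p = 0.056 from limma). None passed the 10-fold rule, against 6.66% of all genes. The order of the falls had changed. Nlrp2 and Nlrp9b fell most, both by -2.42, or 5.61-fold in the means, while Nlrp14 fell 1.63-fold (-0.70) and Nlrp9a 1.55-fold (-0.61). The median of all genes was -0.72, but -1.30 with a pseudocount of 0.1 FPKM, which left Nlrp14 at -0.70. The place of Nlrp14 relative to the typical gene thus depended on that choice. Without the ERCC scaling Nlrp14 (0.36), Nlrp9a (0.44) and Nlrp9c (0.47) were higher at MII than at GV in Zar1/2-null oocytes, as were 18.8% of all genes, so the direction of these changes rests on the scaling.

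Whether maturation changed a gene unequally in WT and Zar1/2-null oocytes was tested directly, as an interaction. It was positive, meaning a smaller fall in Zar1/2-null oocytes, for Nlrp14 (2.78, SE 0.25, adjusted p = 1.0e-05 from limma), Nlrp2 (1.46, SE 0.28, adjusted p = 0.0024), Nlrp9a (1.37, SE 0.33, adjusted p = 0.0086) and Nlrp9c (1.06, SE 0.35, adjusted p = 0.039). These were 4 of the 9 genes with 0 in the other direction, against 33.9% and 0.643% of all genes. The median of all genes was 0.48, or 0.69 with a pseudocount of 0.1 FPKM. Nlrp14 and Nlrp2 passed in all 18 alternatives, with values between 2.01 and 2.98 and between 0.79 and 1.68. Nlrp9a passed in 16, both exceptions being the other scalings, and Nlrp9c in 6. For the remaining genes the interaction was -0.03 for Nlrp4a (95% interval -0.60 to 0.54), 0.02 for Nlrp4f (-0.56 to 0.60), 0.10 for Nlrp9b (-0.52 to 0.71), 0.21 for Nlrp4e (-0.25 to 0.67) and 0.40 for Nlrp4b (-0.35 to 1.14). Without the ERCC scaling, the interactions of Nlrp4a and Nlrp4f were negative and passed the threshold (-0.72 and -0.67), as did 6.17% of all genes in that direction. With median scaling those of Nlrp4a, Nlrp4e, Nlrp4f and Nlrp9b did, against 8.83% of all genes.

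The profiles were also compared as such, on log2(FPKM + 1) over the 12 libraries, which share their stage and their scaling. The genes outside the group with the profile most like its mean were Scfd1, Pigk, Gpr137b-ps, Fam164a and Bach2, with Pearson correlations of 0.997 to 0.995. Between pairs of the 9 genes the correlation had a median of 0.901 over 36 pairs. After the mean of each stage was removed from each gene, it ranged from -0.371 to 0.968 with a median of 0.548. Nlrp9a and Nlrp9c were then most alike (0.968), followed by Nlrp2 and Nlrp14 (0.962) and Nlrp4a and Nlrp4f (0.952). Nlrp9b was most like Nlrp4a (0.930), and its correlations with Nlrp9a and Nlrp9c were 0.171 and 0.227. With 12 points from 6 groups these values describe the libraries.

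Nlrp5 and its partners in the maternal complex give the nearest comparison. Nlrp5 had 29.2 and 38.0 FPKM in WT MII and 105 and 119 FPKM in Zar1/2-null MII oocytes, a log2 difference of 1.72 (SE 0.17), between those of Nlrp2 and Nlrp14. Of the 6 genes of the list (Nlrp5, Tle6, Ooep, Khdc3, Padi6 and Zbed3), 5 were higher in Zar1/2-null MII oocytes, with a median of 2.60. The 3 largest differences were those of Khdc3 (4.59, listed under its older symbol 2410004A20Rik), Tle6 (4.11) and Ooep (3.25). In growing oocytes 0 of the 6 passed the threshold in either direction, and at the GV stage 2 were lower, Zbed3 (-0.64) and Khdc3 (-0.62). With the spike-in scaling taken out, as with median scaling, 5 of the 6 were again higher at MII, 0 passed at the GV stage, and Nlrp5 was higher in growing oocytes (0.58 under either). Nlrp14 over Nlrp5 was 3.67 and 2.99 in WT MII and 5.13 and 4.11 in Zar1/2-null MII oocytes, beside 3.34 to 6.29 in the 8 earlier libraries. Nlrp2 over Nlrp5 was 0.216 and 0.171 in WT MII against 0.196 and 0.137 in Zar1/2-null MII oocytes, which overlapped.

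In the rest of the NLR family most genes examined stayed below 1 FPKM in every library. Of 20 other NLR genes 19 had a row and 5 reached 1 FPKM in a library: Naip1, Nlrc4, Nlrp1a, Nlrp4c and Nod2. In growing oocytes 4 of these were lower and 1 higher in Zar1/2-null oocytes, with the largest differences for Naip1 (-2.93, from 24.7 to 2.36 FPKM in the means), Nlrc4 (-0.87) and Nod2 (-0.60). At the GV stage 4 were lower, led by Naip1 (-1.75) and Nlrp4c (-0.97), and at MII 0 passed in either direction. Under both other scalings Naip1 was again lower in growing and GV oocytes, Nlrc4 and Nod2 lost their call in growing oocytes, and Nlrp4c was lower at MII (-0.78 and -0.71). At the GV stage Nlrc4 lost its call under both, and Nlrp4c with median scaling (-0.48). Nlrp4c, a close relative of the Nlrp4 genes above, had 19.0 ± 0.0447 FPKM in WT growing and 12.9 ± 2.15 FPKM in Zar1/2-null growing oocytes. NLRP3, the best known inflammasome sensor, was below 0.03 FPKM in every library. Of 10 genes for inflammasome partners, 4 reached 1 FPKM in a library (Casp8, Dhx9, Il18 and Nek7). Dhx9, the helicase partner of NLRP9B, was lower in Zar1/2-null growing oocytes (-0.45, from 1.48 to 0.809 FPKM), a call that it lost under both other scalings (-0.32 and -0.21). No other partner passed the threshold between the genotypes at any stage on the deposited scale, whereas under the other 2 Casp8 was higher at the GV stage (0.63 and 0.68) and Il18 at MII (1.06 and 0.79). Pycard, the adaptor of inflammasomes, and Casp1 stayed below 1 FPKM in all 12 libraries.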

How the data were processed

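The authors trimmed the reads of each library to 50 bp, aligned them with TopHat2 2.1.1 (mm9), and computed levels of UCSC genes with Cufflinks 2.2.1 from reads with a unique position. As the result the authors deposited 1 table of FPKM values, multiplied by the share of ERCC reads in WT growing oocytes over that in the library. Both WT growing libraries have a factor of 1, and judged from the spike-in shares the study lists, every other library was referred to the growing WT pool that carries the same number. It holds no counts, so no interval from counts is given. Values of exactly 0 made up 33.5% of a library on average and can be failed estimates.

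A gene entered the tests if any library reached 1 FPKM (11502 genes). On log2(FPKM + 1), limma 3.58.1 (R 4.3.3) estimated 6 group means from the 12 libraries, with a variance trend on level. Adjusted p-values are Benjamini-Hochberg values over all these genes, with a threshold of 0.05. The pseudocount of 1 FPKM understates folds of low genes. The 3-fold and 10-fold rules take their folds from the study, but group means under 1 FPKM were set to 1 in place of single values. The fit was tested on simulated data with the same spread for every gene, which does not show how it performs on these data. Samples were grouped by their labels. The methods and the labels give different ages for the growing oocytes, and the age in the labels is printed.

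The members, gene lists and tests were chosen with earlier results of these data known. All 9 members are named. From each list at most 3 genes with the largest differences among those past the threshold were to be named, besides Zar1, Zar1l and Nlrp5. The other genes named from these lists and the named markers were added after their values were seen. Relative depth was read from values under 0.3 FPKM, which are multiples of the worth of 1 read. Coding sequences were aligned pairwise, and positions and 3′ ends came from GENCODE vM1 on NCBIM37 (mm9), promoters from RefSeq on GRCm38.p6. Alternatives were no ERCC scaling, median scaling, a pseudocount or floor of 0.1 FPKM, no filter, only the libraries compared, a replicate block, and each library left out. An alternative chosen after seeing the data set single values under 1 FPKM to 1 in the fold rules, and left the counts of members as they were.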

Additional observations from a re-analysis of the deposited data

Results flagged for a closer look

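In 4 of the 9 genes the genotype effect at MII differed from that at the GV stage by the interaction test of limma, where 33.9% of all genes had a positive interaction past the threshold. The null-minus-WT difference was larger at MII than at GV by 2.78 on the log2 scale for Nlrp14 and by 1.46 for Nlrp2, and both libraries of each genotype lay apart at MII. For Nlrp9a the value was 1.37 and for Nlrp9c 1.06, and these did not pass the threshold with either of the other scalings. No group had the 4 samples that a test for a single outlying library needs.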

How the results depend on the processing

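The ERCC scaling mattered most, since it sets how much RNA each library is credited with. Without it, 3 of the 9 genes were lower in Zar1/2-null growing oocytes, 0 at the GV stage and 5 at MII, against 11.7%, 13.1% and 22.7% of all genes. Median scaling gave 2, 0 and 5, against 11.9%, 11.4% and 23.6%, with 1 gene (Nlrp2) higher at the GV stage. The 3 genes higher at MII stayed 3 under every scaling, where 23.9% and 25% of all genes were higher. From growing to GV in WT oocytes 2 genes fell without the scaling and 3 with median scaling, beside 3.0% and 3.43% of all genes. From GV to MII in WT oocytes 3 fell under either, and 2 and 3 rose, with 0 past 10-fold, beside 46.1% and 40.8% of all genes lower and 19.2% and 29.5% higher. In Zar1/2-null oocytes 3 and 2 fell and 3 and 3 rose, beside 39.3% and 34.2% lower and 18.8% and 28% higher. The interaction was positive in 2 genes under either, and negative in 2 without the scaling and in 4 with median scaling, beside 14.3% and 14.5% of all genes positive and 6.17% and 8.83% negative. The scaling also turned single directions. Without it (and with median scaling), growing oocytes gave 0.14 (0.14) for Nlrp14 and 0.14 (0.15) for Nlrp2, and GV oocytes gave 0.37 (0.46) for Nlrp2, 0.0647 (0.15) for Nlrp4a, 0.0745 (0.16) for Nlrp9a and 0.0884 (0.18) for Nlrp9c, with 0.0449 for Nlrp4f under median scaling. Growth of WT oocytes gave 0.24 (0.22) for Nlrp4e. Maturation of WT oocytes gave 0.56 (0.91) for Nlrp4a, 0.11 (0.46) for Nlrp4e, 0.43 (0.79) for Nlrp4f and 0.0918 (0.45) for Nlrp9c, with 0.34 for Nlrp4b and 0.0986 for Nlrp9a under median scaling. Maturation of Zar1/2-null oocytes gave 0.36 (0.64) for Nlrp14, 0.44 (0.72) for Nlrp9a and 0.47 (0.75) for Nlrp9c, with 0.12 for Nlrp4a and 0.0415 for Nlrp4f under median scaling. The interaction gave -0.30 (-0.37) for Nlrp4b, -0.49 (-0.56) for Nlrp4e, -0.67 (-0.75) for Nlrp4f and -0.62 (-0.68) for Nlrp9b.

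With no filter on low values, 2 genes were lower in growing, 2 in GV and 1 in MII Zar1/2-null oocytes, and 3 fell during WT growth. Of all 23230 genes then tested, 2645, 4209 and 883 were lower and 2364 fell. With only the libraries of the groups compared the 9 genes gave 3, 1, 0 and 3. Over all 11502 genes these counts were 2256, 2949, 1380 and 1952. Leaving out each library in turn gave 1 to 5 lower genes in growing, 1 to 6 in GV and 0 to 2 in MII Zar1/2-null oocytes, 3 to 4 higher at MII, 1 to 7 falling during WT growth, 9 to 9 during WT and 7 to 9 during Zar1/2-null maturation, 3 to 4 with a smaller fall in Zar1/2-null oocytes, 1 to 2 past 3-fold higher at MII and 1 to 2 past 10-fold lower in WT. Over all genes the numbers called also moved with the library left out. Leaving out a library turned the sign of Nlrp2 at the GV stage (-0.29 to 0.14) and of Nlrp4e in WT growth (-0.30 to 0.0047). It also turned the interactions of Nlrp4a (-0.24 to 0.18), Nlrp4f (-0.18 to 0.22) and Nlrp9b (-0.20 to 0.39). None of these passed the threshold in the full data. A pseudocount or floor of 0.1 FPKM changed no count by more than 1.5 times. By their deviations the replicate numbers pair the samples weakly at most: those of libraries with the same number correlated between -0.117 and 0.163 over 15 pairs of groups (median 0.0872), mostly above 0 and with 4 over 0.1. The scaling nevertheless ties libraries of one number to the WT growing library of that number, and a factor common to one number is what the block takes up. With the replicate block the 9 genes kept all calls, and Nlrp9c at MII (0.70), Nlrp9c in Zar1/2-null maturation (-0.59) and Nlrp4a and Nlrp4b in WT growth (-0.48 and -0.63) were called as well. More of all 11502 genes were called too. With the block 2574 were higher at MII, 8084 fell in Zar1/2-null maturation and 3465 in WT growth, beside 2472, 7903 and 3306 without it. The counts behind each value are not known, and with 2 libraries a group an outlying library cannot be recognised.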
